A study of Drosophila melanogaster with 21 samples.

Results

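The acyl-CoA-binding protein family of Drosophila melanogaster was followed through the RNA-seq libraries of depleted S2 cells. The family was taken as 8 named genes (Dbi, CG8628, CG8629, CG8498, CG5804, CG15829, CG8814 and anox) out of the 17737 genes listed in each table. It was selected on the measured values, because Dbi is among the largest rises after Ush depletion, so the values of dsUsh against dsEGFP are given as a description and carry no test for these genes. S2 cells are a hemocyte-derived line, that is, a line with properties of Drosophila blood cells. They were transfected with double-stranded RNA and harvested after 4 days. The methods describe this treatment in S2 cells that express Cas9, whereas the labels name S2 cells. The first table holds 3 libraries of control cells (dsEGFP, the non-targeting dsRNA), 3 of cells depleted of all isoforms of U-shaped (dsUsh), a FOG family cofactor of GATA factors, and 3 of cells depleted of dMi-2 (dsMi-2), the ATPase of the nucleosome remodeler NuRD. A separate table holds 4 libraries depleted of the Ush-B isoform alone (dsUsh-B) and 4 dsEGFP controls of their own. The labels name no other allele or agent for any of them. The methods give 3 independent transfections for RNA-seq, and the sources do not say which of the described dsRNAs against Ush was used.

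Acyl-CoA-binding proteins are small carriers that hold long-chain fatty acids while they are linked to coenzyme A. Activated fatty acids of this kind are made by acyl-CoA synthetases and are either oxidised in mitochondria and peroxisomes or built into triglycerides, phospholipids and sphingolipids. The carriers buffer the free pool of these detergent-like molecules and hand them to the enzymes that use them. In mammals the founding member is also known as the diazepam-binding inhibitor, from which the fly gene Dbi has its name. In the RefSeq gene table of Release 6, Dbi, CG8628, CG8629, CG8498, CG5804 and CG15829 are named Acbp2, Acbp3, Acbp4, Acbp1, Acbp5 and Acbp6. CG8814 has no family name there, and anox encodes an acyl-CoA-binding protein with ankyrin repeats.

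The libraries held between 21366051 and 26101822 reads on genes in the first table and between 46181614 and 59387417 in the Ush-B table. The Mi-2 transcript fell by 1.97 on the log2 scale in dsMi-2 cells (standard error 0.15, adjusted p = 6.93e-05, limma). The ush transcript was 0.31 lower on the log2 scale in dsUsh cells (standard error 0.13, adjusted p = 0.0978, limma) and 0.11 lower in dsUsh-B cells (standard error 0.18, adjusted p = 0.928, limma), with overlapping groups in both. Within the pairs of same-number libraries, however, ush was lower in dsUsh in 3 of 3, by 0.37, 0.33 and 0.23 on the log2 scale, and in the fit with the replicate number as a block it was past the threshold (standard error 0.07, adjusted p = 0.00702, limma). The dsUsh-B label has no such check in the transcript level. For protein, the study reports Western blots in which dsRNA against Ush removed the signals of both major Ush bands. In a separate blot, of nuclear extract from cells with FLAG-tagged dMi-2, dsRNA against Ush-B depleted the slower band. Of 12 hemocyte markers, 11 exceeded 3 reads in a library of the control cells of the first table, at very different levels. There srp, crq and Pvr had at least 3329.7, 9284.5 and 20652.3 normalised counts, whereas Hml, Sr-CI and He had at most 29.0, 9.0 and 6.3. NimC1, a phagocytosis receptor of plasmatocytes, stayed at 1.8 normalised counts or fewer there.

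Before any depletion most of the reads counted on the family came from CG8498 and CG8814. A normalised count is the number of reads on a gene after division by a size factor of the library. CG8498 had 1051.4, 1023.0 and 1033.5 normalised counts in the dsEGFP libraries, and CG8814 had 1381.6, 1778.4 and 1600.9. Dbi had 4.5, 8.3 and 2.1 normalised counts there, from 15 reads in all. CG8628 and CG8629 had 0 reads in each dsEGFP library, which allows up to 0.135 RPM (reads per 1000000 reads on genes) in the shallowest of them. CG8498 and CG8814 were thus present at a clear level, and Dbi, CG8628, CG8629, CG5804 and CG15829 were near the limit of detection. The level of anox cannot be read, because its annotated span is shared with another gene, as given below.

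Levels of different genes were compared as RPM per kilobase of annotated gene span, introns included, so a gene with introns is understated. On this scale CG8498 came first in dsEGFP cells (69.3 ± 5.98, SD, n = 3) and CG8814 second (30.4 ± 2.76), with ranges apart. Dbi followed at 0.138 ± 0.0848, and its range overlapped that of CG15829, the next in order. In dsUsh cells the order changed. Dbi stood first (139 ± 36.3, n = 3), above CG8498 (62.1 ± 2.71) and CG8814 (41.6 ± 6.94), and the ranges of these 3 genes were apart from each other. In dsMi-2, dsUsh-B and the second set of control cells, CG8498 and CG8814 held the first places as in dsEGFP, with ranges apart.

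In Ush-depleted cells Dbi had 3916.4, 7262.6 and 4740.3 normalised counts, against 4.5, 8.3 and 2.1 in dsEGFP. The groups were far apart, with the lowest dsUsh library well above the highest control. The mean was 1062-fold higher (5306 ± 1743 against 4.997 ± 3.13, SD, n = 3 each), or 866-fold higher without dsUsh replicate 2, the highest library. By log2 fold change (9.88) Dbi was in place 4 of the 9132 genes tested. Its log2 fold change was computed on log2 of the normalised count plus 1, which understates the change of a gene with so few reads in control cells.

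**Figure D1:**
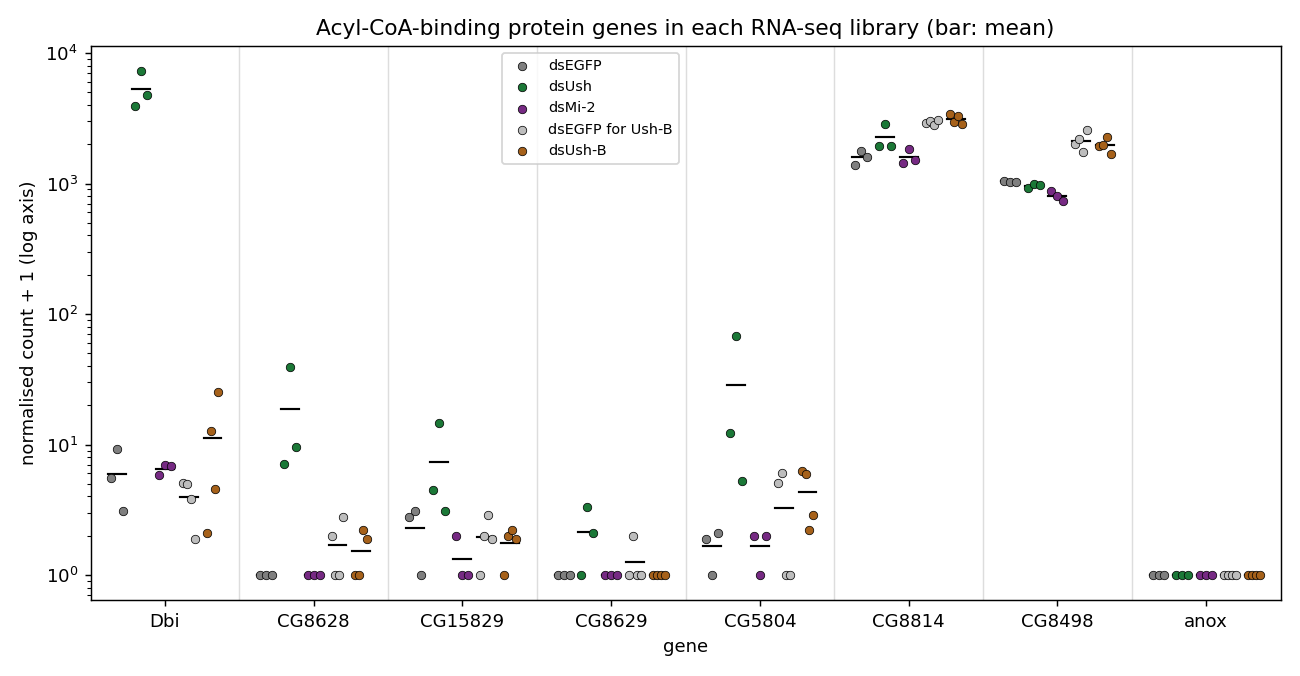
Normalised count plus 1 (log axis) of each of the 8 acyl-CoA-binding protein genes in the 17 libraries, coloured by group, with the mean of each group as a bar. Dbi lies between 3916.4 and 7262.6 normalised counts in the 3 dsUsh libraries and at 24.4 or below in all others. CG8814 lies between 1381.6 and 3427.0, CG8498 between 739.8 and 2556.1, and anox is listed at 0 throughout. The first and the Ush-B table were scaled separately, so their levels are not on 1 scale.

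Reads from 4 further genes of the family appeared or increased in dsUsh cells, at far lower levels. CG8628 had 6.1, 38.6 and 8.5 normalised counts (49 reads) in dsUsh cells and 0 in all dsEGFP libraries. Set against a floor of 3 reads in the whole control group, the rise was at least 16.5-fold. Without dsUsh replicate 2 it was at least 7.19-fold. CG5804 had 11.3, 67.0 and 4.3 normalised counts in dsUsh cells against 0.9, 0.0 and 1.1 in dsEGFP. This was a ratio of 41.9 from 76 against 2 reads, with a 95% exact counting interval of 10.3 to 323, and a ratio of 11.8 (2.90 to 109) without dsUsh replicate 2. CG15829 had 4, 12 and 2 reads in dsUsh cells against 2, 2 and 0 in dsEGFP, a ratio of normalised counts of 4.94 (1.499 to 18.5). Without dsUsh replicate 2 that ratio was 2.16 and its interval of 0.511 to 10.4 spanned no change. CG8629 had 3 reads in the dsUsh libraries and none in dsEGFP, so no fold is given. These intervals cover counting error only and not the spread between transfections. For a gene with so few reads, a few cells with much transcript and many cells with little cannot be told apart in bulk RNA.

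The abundant genes CG8814 and CG8498 moved much less. CG8814 had 1941.3, 2868.2 and 1951.8 normalised counts in dsUsh cells, each above the highest control library at 1778.4, and a log2 fold change of 0.49 (0.30 without dsUsh replicate 2). CG8498 had 916.8, 995.5 and 974.3, each below the lowest control library at 1023.0, and a log2 fold change of -0.11. As RPM its groups overlapped (39.2 to 42.7 in dsUsh against 42.5 to 49.96 in dsEGFP). Under upper-quartile scaling, which lowers the median of all genes in this comparison from -0.01 to -0.12, the CG8498 value was -0.22. Of the 5 genes that passed the filter on low values (a mean of at least 5 normalised counts over the table), 2 were past the threshold of an adjusted p under 0.01, Dbi and CG8628, beside 17.2% of all genes tested. CG8628 and CG5804 passed this filter through the dsUsh libraries alone. In the fit with a block for the replicate number, 3 of the 5 were past the threshold, beside 28.5% of all genes, the third being CG8814. The groups did not overlap for any of the 5, beside 43.4% of all genes tested. As the genes were chosen on this comparison, nothing is read from these counts.

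In normalised counts replicate 2 was the highest of the 3 dsUsh libraries for all 7 genes with reads, as it was for 3928 of the 9132 genes tested. The difference was small for CG8498, which was lowest in replicate 2 when given as RPM, and large for the genes with few reads. The reads on CG8628 equalled 0.155%, 0.532% and 0.180% of those on Dbi in replicates 1, 2 and 3, from 7, 34 and 8 reads. For CG5804 these shares were 0.288%, 0.923% and 0.0900%, and for CG15829 they were 0.0887%, 0.188% and 0.0450%. How reads that match several members of the family were counted is not given in the sources used here.

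**Figure D2:**
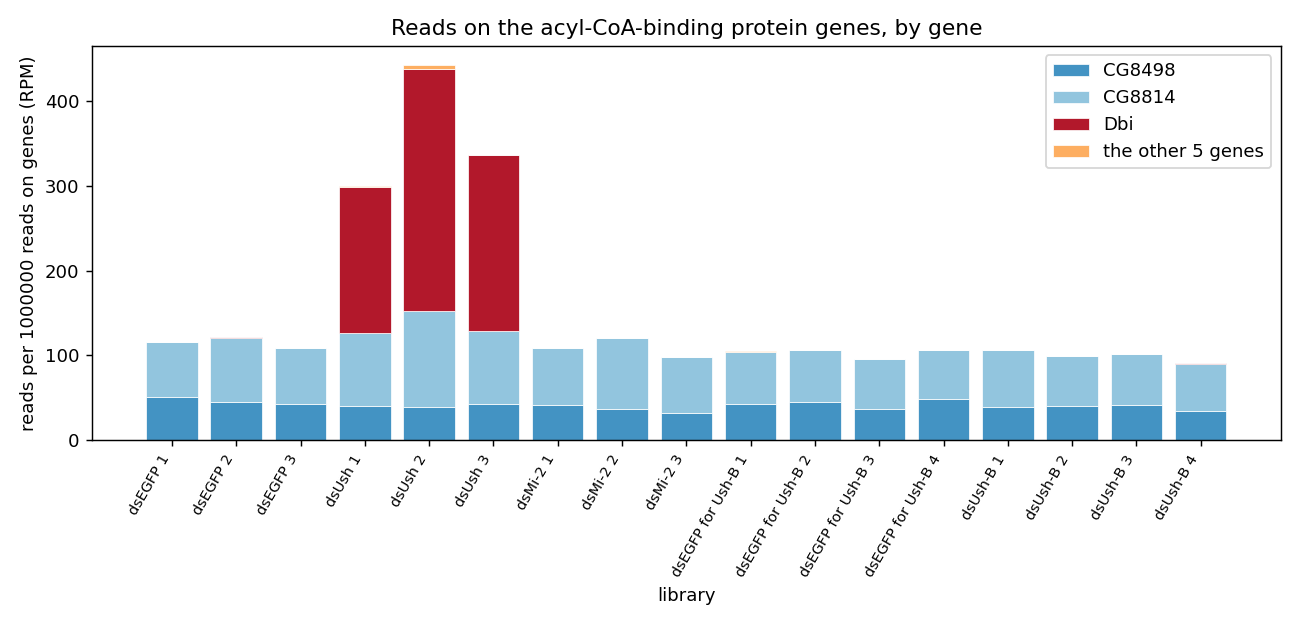
RPM (reads per 1000000 reads on genes) from the acyl-CoA-binding protein genes in each library, stacked by gene. The stack is 299.9 to 443 RPM in the 3 dsUsh libraries and between 90.7 and 121 in the other 14, and Dbi makes up most of the added part.

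The reads counted on the family as a whole rose with Dbi, where anox, whose level cannot be read, enters as 0. They made up 115 ± 6.37 RPM in dsEGFP cells and 360 ± 74.4 in dsUsh cells (SD, n = 3 each). Without Dbi the sums were 115 ± 6.24 and 138 ± 16.8. Dbi accounted for 57.6%, 64.6% and 61.7% of the family's reads in the dsUsh libraries, with 95% Wilson intervals of 56.5% to 58.7%, 63.6% to 65.5% and 60.6% to 62.8%, which cover counting error only and do not overlap between the 3 libraries. In dsEGFP it accounted for between 0.0809% and 0.296%, and in dsMi-2 for between 0.210% and 0.260%.

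Dbi, CG8628, CG15829 and CG8629 lie side by side on chromosome arm 3L, in a stretch of 5551 bases in Release 6, and this position was no part of the choice of the genes. CG5804 lies elsewhere on 3L, CG8498 and CG8814 on 2L and anox on X. In the order of the annotation the cluster runs from CG8629 through CG15829 and CG8628 to Dbi, with gaps of 638, 1200 and 357 bases. The dsUsh libraries together held 3, 18, 49 and 15344 reads on these genes, so that the number rose towards Dbi. The genes just outside did not follow. The melt gene, 1052 bases beyond Dbi, encodes a membrane-associated regulator of growth and fat storage. It had 562.6, 345.5 and 452.5 normalised counts in dsUsh cells against 585.4, 470.9 and 954.5 in dsEGFP, or -0.53 on the log2 scale (limma, standard error 0.29, adjusted p = 0.213). On the other side, msl-3, a subunit of the dosage compensation complex, was at -0.28 on the log2 scale (limma, standard error 0.13, adjusted p = 0.125).

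**Figure D3:**
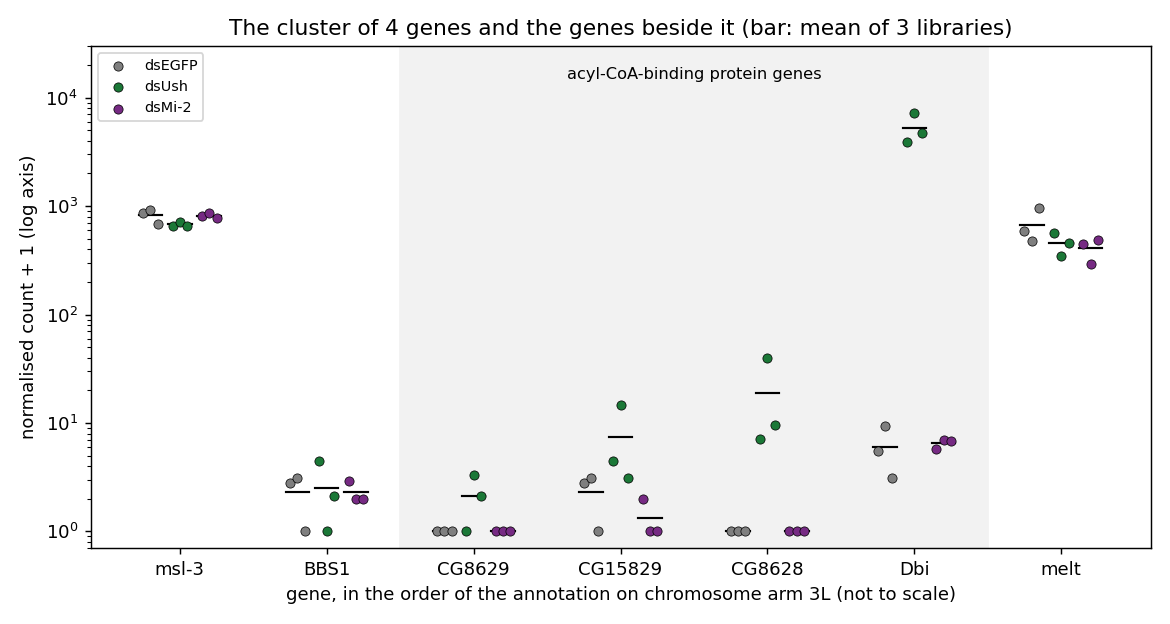
Normalised count plus 1 (log axis) in the 9 libraries of the first table for the 4 clustered acyl-CoA-binding protein genes and the genes beside them, in the order of the annotation and not to scale, with bars at the means. The dsUsh means rise from CG8629 to Dbi, while the dsUsh values of msl-3 and melt overlap those of their controls.

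Overlaps between annotated genes limit some of these values, because the sources do not state whether strand was used in counting reads from the stranded kit. CG8629 shares 206 bases with BBS1, which had at most 3.5 normalised counts in any library of the first table. CG5804 lies with all of its 402 bases inside the span of Fhos. Fhos, which encodes a formin that assembles actin, rose in dsUsh cells by 0.72 on the log2 scale (limma, standard error 0.16, adjusted p = 0.00865). That call was held in 7 of 20 alternatives and lost without any single library but dsEGFP replicate 1 (adjusted p 0.0127 to 0.036). The dsUsh libraries held between 3094.7 and 3834.8 normalised counts of Fhos, with replicate 1 the highest. The part of reads from Fhos in the value of CG5804 was not tested. CG8814 shares 78 bases with Prx6005 and CG8498 shares 5 bases with Rbsn-5. The log2 fold changes of these partners were -0.12 (adjusted p = 0.724) and 0.12 (adjusted p = 0.553) after Ush depletion (limma). PAPLA1, a phosphatidic acid-preferring phospholipase and the nearest gene to CG8498 on the side away from Piezo, rose by 0.55 on the log2 scale (limma, standard error 0.09, adjusted p = 0.00154). The other nearest genes, Piezo, CG31694, CG31950, Rpt6 and Dd, did not pass the threshold after Ush depletion, and CG6576 and CG13310 had no reads there. The annotated span of anox is the same as that of SLIRP1, 1361 bases in each case. Both were listed at 0 in all 17 libraries, so the level of anox cannot be read from these tables.

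In dMi-2-depleted cells Dbi stayed at the level of the control. It had 4.8, 6.0 and 5.8 normalised counts from 17 reads, within the range of the dsEGFP libraries, and a log2 fold change of 0.26 (95% interval -0.61 to 1.14, adjusted p = 0.738, limma). The sign of this value was negative under quantile normalisation and without dsEGFP replicate 3 (-0.29 and -0.14). CG8628 and CG8629 had 0 reads in these 3 libraries, which allows up to 0.137 RPM in the shallowest of them, and CG15829 and CG5804 had 1 and 2 reads. CG8814 had 1429.6, 1853.0 and 1502.1 normalised counts and a log2 fold change of 0.01 (95% interval -0.38 to 0.39, adjusted p = 0.993, limma). Of the 5 tested genes, 0 were past the threshold by limma and by edgeR and 1 by DESeq2, beside 6.29% of all genes tested by limma and 12.2% by DESeq2. At an unadjusted p under 0.05 there was 1, beside 2505 of all 9132 genes tested (limma). CG8628 and CG5804 are among the 5 only through the dsUsh libraries, and with 0 and 2 reads in each group here they could not be called. In the fit of dsMi-2 and dsEGFP alone, 3 genes were tested and 0 were past the threshold, beside 4.63% of all genes.

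The gene with an unadjusted p under 0.05 was CG8498, in control cells the most abundant per length of the family genes whose level can be read. It had 874.8, 803.7 and 739.8 normalised counts in dsMi-2 cells, against 1051.4, 1023.0 and 1033.5 in dsEGFP. All 3 dsMi-2 libraries were below all controls, a gap between groups that 31.9% of the genes tested showed in one direction or the other. The log2 fold change was -0.36 (standard error 0.10, 95% interval -0.58 to -0.15, lower in 3 of 3 libraries). Its adjusted p of 0.0341 (limma) missed the threshold, and ranged from 0.0053 with DESeq2 to 0.121 over 20 alternatives. Set side by side, the log2 fold changes after Ush and after dMi-2 depletion were 9.88 and 0.26 for Dbi, 0.49 and 0.01 for CG8814, and -0.11 and -0.36 for CG8498. Both depletions were compared with the same 3 control libraries.

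Depletion of Ush-B alone gave no call in the family, although these libraries were deeper. Dbi had 1.1, 11.8, 3.6 and 24.4 normalised counts in the dsUsh-B libraries (42 reads) against 4.1, 4.0, 2.8 and 0.9 in their controls (12 reads). Replicates 2 and 4 were above all controls, while replicates 1 and 3 were within the range of the controls. The log2 fold change was 1.02 (standard error 0.76, 95% interval -0.71 to 2.75, adjusted p = 0.819, limma). The value after depletion of all isoforms comes from the other table and from the comparison on which the genes were chosen. The difference between the tables was not tested. Dbi reached the filter on low values through the dsUsh-B libraries, as its mean in their controls was 2.94. Without dsUsh-B replicate 4 the mean of Dbi fell under the filter and it was not tested. CG8814 had a log2 fold change of 0.08 (95% interval -0.10 to 0.27, adjusted p = 0.869, limma) and CG8498 of -0.10 (95% interval -0.41 to 0.20, adjusted p = 0.908, limma). Of these 3 genes, 0 were past an adjusted p under 0.05 by limma, edgeR or DESeq2. At an unadjusted p under 0.05 there were 0 of the 3, beside 684 of all 9648 genes tested by limma. DESeq2 gave an adjusted p for 2 of the 3. In the whole table limma called 1 gene, which is 0.0104% of the 9648 tested, edgeR called 0, and DESeq2 called 92, or 1.13% of the 8142 genes with an adjusted p.

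The low-level genes of the family did not separate the groups of the Ush-B table. CG5804 had 5.3, 4.9, 1.2 and 1.9 normalised counts in dsUsh-B cells and 4.1, 5.0, 0.0 and 0.0 in controls. In both groups replicates 1 and 2 were above replicates 3 and 4. CG8628, CG15829 and CG8629 had 2, 3 and 0 reads in dsUsh-B cells and 3, 4 and 1 reads in controls. For Dbi, in contrast, replicates 2 and 4 were the high dsUsh-B libraries.

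The genes whose pattern was most like that of Dbi over the 9 libraries of the first table were ranked by the Pearson correlation of log2 normalised counts among 7190 genes with a mean of at least 50. They were Cyp9h1, a cytochrome P450 (r = 0.997), CG17930 (0.995), 14-3-3epsilon, a phosphoserine-binding adaptor (0.995), Psn, the catalytic subunit of gamma-secretase (0.995), and Cht2, a chitinase (0.995). The level of Cyp9h1 went from 10.6 normalised counts in dsEGFP to 12445 in dsUsh and 13.1 in dsMi-2. Cht2 went from 6.17 to 1968 and 6.53. Psn went from 4882 to 7283 and 4931, so a high correlation was also reached by a modest change with little spread. The 3 dsUsh libraries set these correlations, which are a description over 9 libraries. Among the family itself the values were 0.955 for CG8628, 0.858 for CG5804, 0.787 for CG8814, 0.775 for CG15829, 0.756 for CG8629 and 0.193 for CG8498. Over the 8 libraries of the Ush-B table the most alike of 7469 genes were SPoCk, a calcium pump of the secretory pathway (r = 0.956), Gs2, a glutamine synthetase (0.941), mld (0.922), ogre, an innexin (0.895) and CG30394 (0.894). No gene was in both sets of 5. Among the family the values in the Ush-B table were 0.274 for CG5804, 0.236 for CG15829 and -0.022 for CG8629. They were -0.045 for CG8628, -0.549 for CG8814 and -0.577 for CG8498. Of these members only CG8814 and CG8498 reach the mean of 50.

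Other cell types that could lend their transcripts were looked for beside the rise of Dbi. Of 6 markers of midgut enterocytes, 3 (betaTry, Amy-p and Amy-d) reached the filter on low values, and they did so through the dsUsh libraries alone, so their values are given with no test. Amy-p, an alpha-amylase of the gut, had 455.8, 290.9 and 260.4 normalised counts in dsUsh cells and at most 1.1 in dsEGFP. Amy-d had 158.0, 112.5 and 97.1, against at most 1.0, and betaTry, a trypsin, had 18.2, 131.8 and 13.9 against 0.0. The summed level of the 6 genes was 372.4 to 635.5 in dsUsh cells and 1.0 to 4.5 in dsEGFP. The other 3 listed genes, lambdaTry, Jon99Fi and Mal-A1, were at 1.1, 0.0 and 3.5 normalised counts or fewer in dsUsh cells. Replicate 2 was the highest dsUsh library for betaTry, as for the acyl-CoA-binding protein genes, while replicate 1 was the highest for both amylases. The 6 markers of the fat body, the main lipid store of the fly, summed to 8.7 to 13.6 in dsUsh and 3.1 to 11.7 in dsEGFP cells, with Lsp1alpha, Lsp2 and Fbp2 at 0 in dsUsh. The 12 hemocyte markers summed to 59946.3 to 62800.1 in dsUsh and 44000.5 to 47721.1 in dsEGFP cells. Of 11 tested, 2 were higher and 4 lower past the threshold, beside 12.3% and 4.84% of all genes tested (limma). The scavenger receptor crq went from between 9284.5 and 13315.6 to between 27516.2 and 31194.0 normalised counts and makes up most of the rise of the sum, and He rose at a far lower level. The matrix genes Ppn, Col4a1 and vkg and the phagocytosis receptor eater fell, by 2.16, 2.28, 1.80 and 4.8 on the log2 scale. Of the crystal cell markers, lz had 5.2, 55.7 and 5.3 normalised counts in dsUsh cells against 1.0 or fewer in dsEGFP, with replicate 2 the highest. It too reached the filter through the dsUsh libraries alone, so its values are given with no test. The sum of the 3 crystal cell markers was 9.6 to 73.9 in dsUsh and 7.5 to 48.9 in dsEGFP cells. The lamellocyte marker atilla, which was too low to be tested, had 6.9, 19.3 and 5.3 against 0.0, while the sum with PPO3 was 448.2 to 660.2 against 369.0 to 477.1. The 4 neuron markers summed to 1259.1 to 2046.3 and 1375.2 to 2778.3, and repo, of glia, was at 3.4 or fewer and not tested. The part of the enterocyte, crystal cell and lamellocyte genes in the rise of the acyl-CoA-binding protein genes was not tested.

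The enzymes that make acyl-CoA or take it from the carriers were followed through 8 lists with 76 genes found in the files, none of them an acyl-CoA-binding protein. Of 44 that could be tested in the first table, 12 rose and 0 fell after Ush depletion, beside 12.3% of all genes tested that rose and 4.84% that fell. Their median log2 fold change was 0.33, against -0.01 for all genes tested. Under upper-quartile scaling this median was 0.22 against -0.12, and under quantile normalisation 0.07 against -0.20. Under upper-quartile scaling 9 rose and 0 fell, and under quantile normalisation 9 rose and 1 fell, whereas the share of higher genes among all calls went from 71.8% to 57.0% and 47.5%. With the replicate block 15 rose and 1 fell, with 28.5% of all genes past the threshold. By edgeR 11 were higher and by DESeq2 14, with 0 lower in each.

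The carnitine acyltransferases, which carry activated fatty acids into mitochondria and out of peroxisomes, held the largest share past the threshold, in a short list. Of 4 tested, 3 rose, beside 12.3% of all genes tested. The whd gene (withered, the carnitine palmitoyltransferase of the outer mitochondrial membrane) had 5455.7, 9855.9 and 6331.4 normalised counts in dsUsh cells against 1445.9, 1259.5 and 1161.5 in dsEGFP, a rise of 2.44 on the log2 scale (limma, standard error 0.20, adjusted p = 2.43e-05). CG12428, a carnitine octanoyltransferase homolog that the study itself chose to measure by RT-qPCR, had 1060.1, 1477.3 and 1398.0 against 343.8, 389.6 and 363.7 (log2 fold change 1.83, adjusted p = 4.37e-05, limma). CPT2, the enzyme of the inner membrane, rose by 0.66 on the log2 scale (adjusted p = 0.000582, limma).

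Of the acyl-CoA synthetases 3 of 7 rose after Ush depletion, beside 12.3% of all genes tested. Among them bgm (bubblegum, for very long chains) showed the largest change over all 8 lists. It had 351.6, 1102.3 and 443.9 normalised counts in dsUsh cells against 26.2, 27.1 and 35.2 in dsEGFP, a rise of 4.20 on the log2 scale (limma, standard error 0.38, adjusted p = 4.21e-05). Replicate 2 was again the highest dsUsh library. The synthetase gene pdgy (pudgy) went from 440 ± 22.7 to 3321 ± 1101 (log2 fold change 2.86, adjusted p = 1.16e-05, limma). In the annotation pdgy overlaps Flo2, whd CG11777, CG12428 btz and mdy CG13280 and Cse1, while no gene is listed as overlapping bgm or CPT2. Among the glycerolipid acyltransferases 3 of 11 rose, beside the same 12.3%. The largest rise there was that of mdy (midway, the diacylglycerol acyltransferase that completes triglycerides), from 487 ± 78.0 to 3559 ± 890 (log2 fold change 2.85, adjusted p = 7.17e-06, limma). Each of these 6 genes stayed past the threshold in all 20 alternatives. One gene each rose among 5 elongases, 5 desaturases and 2 enzymes of ceramide synthesis, and 0 of 5 thioesterases and 0 of 5 fatty acyl-CoA reductases were past the threshold (limma). At an unadjusted p under 0.05 there were 1 and 0, beside 3704 of all 9132 genes tested (limma). Of the single genes, lace held its call in all 20 alternatives, CG31522, an elongase, in 15, and CG9743, a desaturase, in 9. The call of CG9743 was lost without any single library but dsMi-2 replicate 2 (adjusted p 0.0109 to 0.0285, limma). The acyltransferases nes and oys held theirs in 12 and 4.

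**Figure D4:**
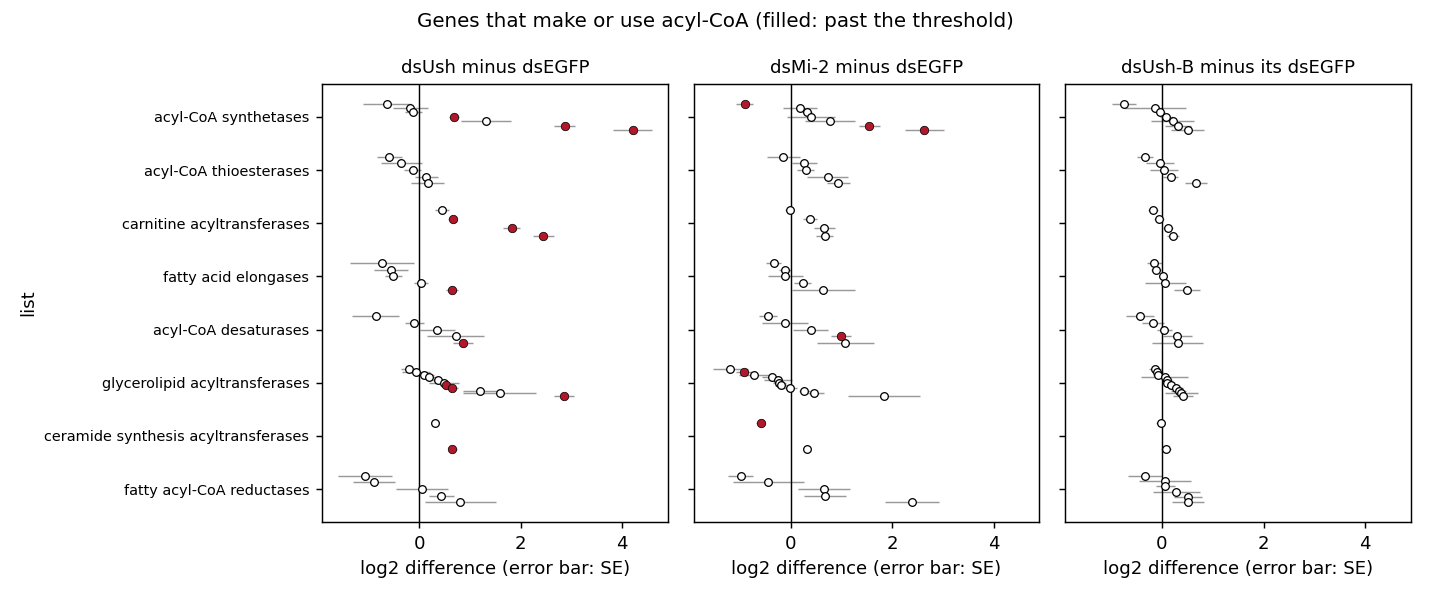
Log2 difference of depleted minus control cells, with its standard error, for the genes of the 8 lists of enzymes that make or use acyl-CoA, in the 3 comparisons. Filled points are past the threshold of limma, which are 12 genes, all higher, after Ush depletion, 3 higher and 3 lower after dMi-2 depletion, and none after Ush-B depletion.

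After dMi-2 depletion 3 of the 44 enzymes rose and 3 fell, beside 4.34% of all genes tested that rose and 1.95% that fell. Their median was 0.27 against -0.01 for all genes, and 0.03 against -0.06 under quantile normalisation. With the replicate block 6 rose and 6 fell, beside 13.0% of all genes past the threshold in place of 6.29%, and DESeq2 gave 7 and 5, beside 12.2%. The synthetases bgm (190 ± 39.1 against 29.5 ± 4.94 normalised counts, log2 fold change 2.63, adjusted p = 0.00193) and pdgy (1307 ± 251 against 440 ± 22.7, log2 fold change 1.55, adjusted p = 0.00136) rose (limma). CG9743, a stearoyl-CoA desaturase homolog, rose by 0.99 on the log2 scale (adjusted p = 0.00953, limma), and was past the threshold in 9 of 20 alternatives. By share past the threshold the list of ceramide synthesis came first, but with only 1 of 2 tested genes, lace. The acyl-CoA synthetases followed with 3 of 7, beside 6.29% of all genes tested.

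Of the enzymes that fell, LPCAT, which rebuilds phosphatidylcholine, went from 12044 ± 1337 to 6399 ± 813 normalised counts (log2 fold change -0.91, adjusted p = 0.004, limma). Acsl, the main long-chain acyl-CoA synthetase, went from 16646 ± 3754 to 8842 ± 1324 (log2 fold change -0.90, adjusted p = 0.0063, limma). The lace gene, a subunit of serine palmitoyltransferase that starts ceramide synthesis from palmitoyl-CoA, went from 12441 ± 407 to 8285 ± 209 (log2 fold change -0.59, adjusted p = 0.00222, limma). Its value after Ush depletion was 0.66 (adjusted p = 0.00047, limma), against the same controls. In the annotation LPCAT overlaps CG42395, and Acsl overlaps UQCR-11L and CG30355. Leaving out a single library ended several of these calls. The LPCAT call was lost without any of the dsMi-2 or dsEGFP libraries (adjusted p 0.01 to 0.0192, limma). That of Acsl was lost without dsMi-2 replicate 1 or 2, dsEGFP replicate 2 or 3 or any of the dsUsh libraries (0.0104 to 0.0304). CG9743 lost its call without any library but dsUsh replicate 2 (0.0125 to 0.0399), lace without dsMi-2 replicate 2 or 3 (0.0124 and 0.0132), and bgm without dsMi-2 replicate 2 (0.0105). Under quantile normalisation LPCAT and lace were not past the threshold. The pdgy call held in all 20 alternatives.

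After Ush-B depletion 0 of 45 enzymes were past the threshold by limma or edgeR, beside 0.0104% and 0% of all genes, and 0 of the 37 to which DESeq2 gave an adjusted p, beside 1.13%. At an unadjusted p under 0.05 there were 3 by limma, 3 by edgeR and 5 by DESeq2, beside 684 of all 9648 genes tested by limma. The synthetase bgm, the largest rise after Ush depletion, had 32.0 to 41.6 normalised counts in dsUsh-B cells and 45.8 to 79.3 in their controls (log2 fold change -0.75, adjusted p = 0.574, limma). The values of mdy and whd there were 0.33 (adjusted p = 0.70, limma) and -0.05 (adjusted p = 0.928, limma).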

How the data were processed

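RNA-seq was measured in 17 libraries of S2 cells, and 4 ChIP-seq libraries were not analysed here. The authors aligned single reads to the Drosophila transcriptome with STAR and counted them per gene with featureCounts. They divided the counts by a DESeq2 size factor per library, and deposited these signal values. The submitters' processing notes name featureCounts 1.6.2 and the builds dm3 and dm6 without a role, so no coordinates are printed. The 3 deposited tables of fold changes and p-values hold the authors' own comparisons and were not used.

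All values were whole multiples of 1 step per library (100%, tolerance 0.05), which gave back whole reads. Differences were tested two-sided with limma 3.58.1 (R 4.3.3) on log2 of the normalised count plus 1, moderated along the trend, in genes with a mean of at least 5, with Benjamini-Hochberg adjustment over all of them. The groups of a table were fitted together, with thresholds of 0.01 (first table) and 0.05 (Ush-B table). Sensitivity fits changed the pseudocount, filter, scaling, moderation, threshold, groups fitted or tool (edgeR 4.0.16, DESeq2 1.42.0 on the reads), used the replicate block or left out each library. P-values measure the spread between the libraries of a group. In the main fit this spread includes differences between replicate numbers. The methods give 3 independent transfections, whereas the Ush-B table has 4 libraries per group.

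The replicate numbers of the first table were read as pairs, because in all 9 pairs of same-number libraries the deviations from their groups correlated (0.239 to 0.569). Only the alternative fit with the replicate block used this pairing. The main fit, which gave all p-values not marked otherwise, did not. With the block 28.5% in place of 17.2% of all genes were past the threshold after Ush depletion, and 13.0% in place of 6.29% after dMi-2 depletion.

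The members, the lists and the markers were chosen with earlier results of these data known. Named were all 8 members, genes next to or overlapping them, the 5 genes most like Dbi in each table, and, of the enzyme lists, every called gene of the list with the largest share called and the 3 largest rises and falls with no overlap between groups. CG31522, nes, oys and single markers were named after their values were seen. Gene names, neighbours and lengths came from a RefSeq table of Release 6, in which 17649 of the 17737 names were found. Levels per coding length had been planned, but only the span with introns was at hand.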

Additional observations from a re-analysis of the deposited data

How the results depend on the processing

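The number of acyl-CoA-binding protein genes past the threshold after Ush depletion was 2, beside 1567 of all 9132 genes tested. It was 1 with a pseudocount of 8 (beside 1553 of 9132), a mean of at least 20 (1461 of 7860) or edgeR (1492 of 9132). It lay between 1 and 3 when single libraries were left out, with 1 without dsUsh replicate 2 (beside 1108 of 9100). As the genes were chosen on this comparison, nothing is read from these counts. After dMi-2 depletion the number was 0, beside 574 of 9132. It was 1 with DESeq2 (beside 1092) or at an adjusted p under 0.05 (beside 1275). It stayed at 0 after Ush-B depletion in all 19 alternatives. The log2 fold change of Dbi after dMi-2 depletion turned negative under quantile normalisation (-0.29) and lay between -0.14 and 0.65 with libraries left out, and that of CG8814 lay between -0.11 and 0.0915.

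The number of acyl-CoA enzymes past the threshold after Ush depletion stayed within 1.5 times of 12 in all 21 alternatives. Over all genes the calls went from 1008 without dsUsh replicate 3 to 2679 at an adjusted p under 0.05, against 1567. After dMi-2 depletion the 6 calls (beside 574 over all genes) became 3 without the trend (beside 438) and 12 with the replicate block (beside 1187). They became 12 with DESeq2 (beside 1092) and 11 at an adjusted p under 0.05 (beside 1275). With libraries left out they were 1 to 6, the lowest without dsMi-2 replicate 2 (beside 296). In the Ush-B table same-number libraries correlated at -0.0486 to 0.66 and were not taken as pairs. Libraries of different number correlated there at -0.607 to 0.762. The replicate block gave 0 calls in both sets, as did the fit without it, but it cannot take up likeness between different numbers. Of the other named enzymes and markers, lz left out, the block added calls for CG12428 and PPO3 after dMi-2 depletion and for Hml and srp after Ush depletion. Genes with few reads are limited by depth, and their log2 fold changes depend on the pseudocount, as for CG8628 after Ush depletion (1.47 with 8 and 4.73 with 0.5, against 3.79). Causes of these shifts were not tested.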
